A study of Mus musculus with 6 samples.

Results

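Brown fat is an endocrine organ as well as a heat source, and 10 genes for factors that it has been described to secrete were followed here among the 24062 gene symbols counted: Bmp8b, Bmp7, Gdf15, Mstn, Fgf21, Nrg4, Igf1, Il6, Metrnl and Slit2. They were matched by symbol, and all 10 were found. Brown adipose tissue came from male C57BL/6 mice aged 12 weeks, 3 with the genotype FAM195A heterozygous and 3 with the genotype FAM195A Knock out, so that the controls carried a disrupted allele too. The sources used here give neither the housing temperature nor the design of the allele. The study concerns FAM195A, a protein of stress granules linked to heat production in the cold, and the comparison asks how the tissue differs when no intact copy of its gene is left.

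Factors released by brown fat act on the adipocytes themselves, on nerves and vessels in the depot, and on distant organs such as liver and brain. Several are made as precursors that furin-like proteases cut, and BMP8B, BMP7, GDF15 and myostatin belong to the TGF-beta superfamily, whose ligands mostly signal through paired serine/threonine kinase receptors and SMAD proteins; GDF15 instead binds GFRAL, which works with the tyrosine kinase RET. FGF21 and GDF15 are known to be induced when cells activate the transcription factors ATF4 and CHOP, and BMP8B is known as a factor that makes brown fat more responsive to sympathetic input.

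Between 18781400 and 25084600 reads per library fell in genes, so that a single read was worth 0.0390 to 0.0533 CPM (read counts scaled to library size). Reads placed in no gene made up 51.6% to 56.1% of the heterozygous-labelled and 41.7% to 49.0% of the knockout-labelled columns, reads aligned to several places 21.8% to 23.8% and 17.6% to 19.8%, and reads outside annotated features 27.5% to 29.9% and 21.5% to 26.6%. None of these shares overlapped between the groups, and their part in the results was not tested. Fam195a itself stood at 69.0, 70.5 and 103 CPM across heterozygous 1 to 3, against 50.5, 82.0 and 81.3 CPM across knockout 1 to 3, with a log2 fold change of -0.18 (SE 0.24; adjusted p = 0.896 by Benjamini-Hochberg in edgeR's quasi-likelihood test). The groups overlapped, so the gene-level count gives no check of the genotype labels, and every direction below is that of libraries labelled knockout against libraries labelled heterozygous. Ucp1, which defines brown adipocytes, and Cidea were the most abundant brown fat markers in all libraries, and the 10 brown adipocyte markers together came to 7792 to 10371 CPM in the heterozygous-labelled and 7937 to 12209 CPM in the knockout-labelled libraries. Of these markers, Elovl3, a fatty acid elongase, was called higher in edgeR (91.1 ± 6.8 and 186 ± 28 CPM, SD, n = 3 each; log2 fold change 1.03, SE 0.15, adjusted p = 0.0418), and Cidea also had groups that did not overlap (0.42, adjusted p = 0.421). Of the 10 brown adipocyte markers, 4 had log2 fold changes above 0 and 6 below, with a median of -0.04 against 0.02 over all genes tested. The 15 skeletal muscle markers, led by Myh4, Atp2a1 and Acta1, came to 9200 to 27616 CPM and 3218 to 5748 CPM, with no overlap. Marker sums overlapped between the groups for macrophages (108 to 275 and 157 to 290 CPM), fibroblasts (996 to 1556 and 1082 to 1502 CPM), endothelial cells (548 to 703 and 644 to 677 CPM), Schwann cells (198 to 281 and 254 to 323 CPM), white adipocytes (93.9 to 256 and 104 to 455 CPM), lymphocytes (2.08 to 3.47 and 1.85 to 3.54 CPM) and red blood cells (7.92 to 16.8 and 15.02 to 19.98 CPM), and did not for muscle satellite cells (3.09 to 11.4 and 0.819 to 1.97 CPM). Of the 6 red blood cell markers, 4 (Hba-a1, Hba-a2, Hbb-bs and Hbb-bt) had 0 reads in every library and only 1 was tested, so that sum says little about red blood cells. Library titles carry the prefix RE in heterozygous 3 and knockout 3 and RF in the other 4, and the second principal component separated the prefixes, whose meaning the labels do not give.

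No tested factor passed the adjusted p of 0.05 in edgeR. Every knockout-labelled library lay above all heterozygous-labelled ones for Bmp8b, and below all of them for Mstn. Read counts were high enough to test 8 of the 10, while Gdf15 and Il6 were too scarce. In the same fit 0.586% of 13300 genes passed, 0.0526% higher and 0.534% lower. At an unadjusted p under 0.05 there were 2 tested factors, Bmp8b (higher) and Mstn (lower), and these were also the tested factors whose groups did not overlap, 1 in each direction. Over all genes tested, 12.1% had an unadjusted p under 0.05, which is the share to set beside the list counts given further on. Groups in 18.0% of all genes tested did not overlap, 8.11% higher and 9.89% lower. DESeq2 called both factors at an adjusted p of 0.05, where it called 5.26% of 14363 genes, 0.815% higher and 4.44% lower. At an edgeR adjusted p of 0.1, Bmp8b was the 1 factor called, where 3.76% of genes passed and 0.451% passed as higher.

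**Figure D1:**
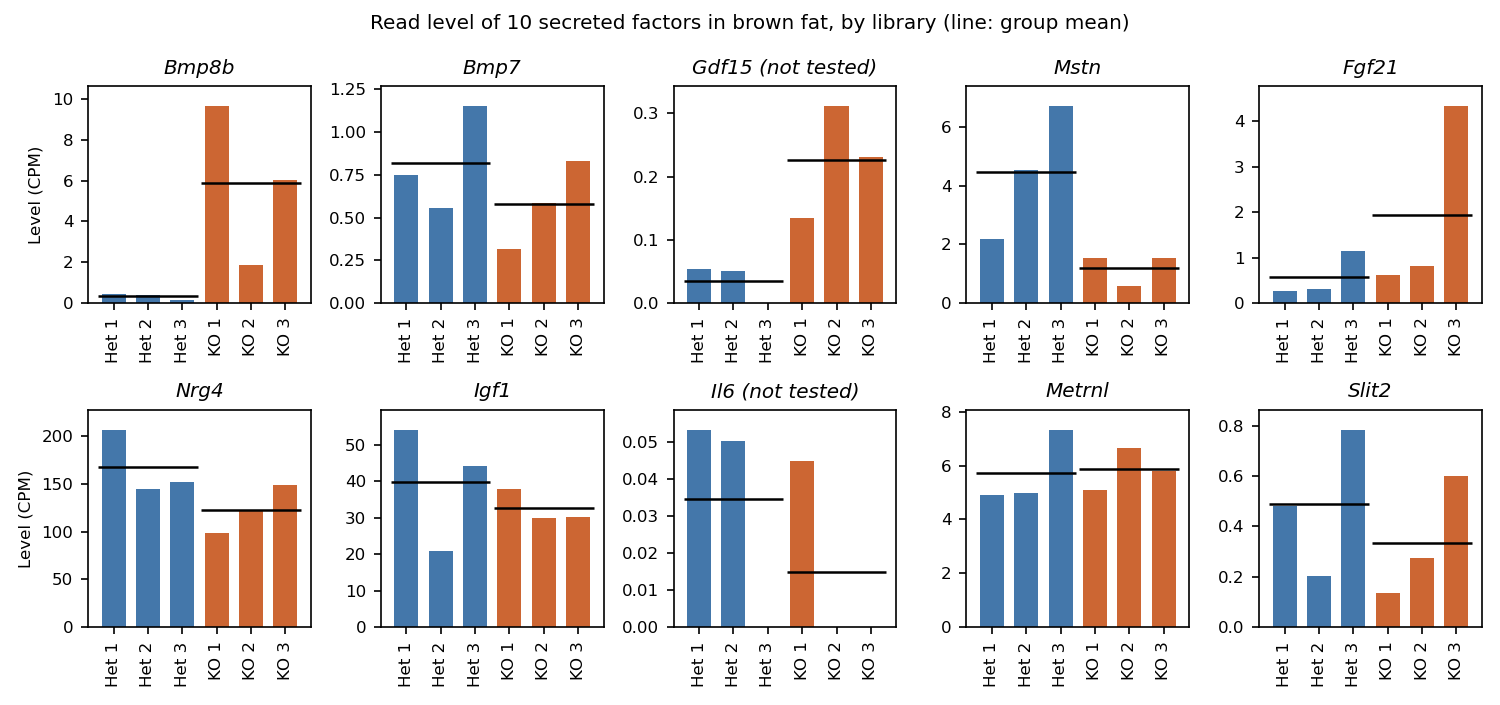
Level of each of the 10 factors (y axis, CPM, a separate scale per panel) in the 6 libraries (x axis; blue heterozygous-labelled, orange knockout-labelled), with the group mean as a black line. Bmp8b stood at 0.138 to 0.427 CPM in the heterozygous-labelled libraries and at 1.87 to 9.68 CPM in the knockout-labelled ones, whereas Metrnl spanned 4.91 to 7.34 CPM with the groups interleaved.

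Bmp8b had the largest upward fold change of all 13300 genes tested. It encodes bone morphogenetic protein 8B. It was represented by 8, 8 and 3 reads across heterozygous 1 to 3, against 216, 48 and 131 reads across knockout 1 to 3. On the scaled level this was 0.427, 0.403 and 0.138 CPM against 9.68, 1.87 and 6.05 CPM. Every heterozygous-labelled library held only a trace of the transcript, and the lowest knockout-labelled library lay above the highest of them. No heterozygous-labelled library reached the filter's minimum count of 10, so Bmp8b entered the test through its knockout-labelled reads. Its rank and the size of its fold depend on that, and on few heterozygous-labelled reads. The log2 fold change was 4.18 (SE 0.72, 95% interval 2.48 to 5.87), or 18.1-fold with an interval of 5.59 to 58.4 (edgeR quasi-likelihood test, adjusted p = 0.0654). The knockout-labelled libraries spread widely among themselves (5.87 ± 3.91 CPM, SD, n = 3, against 0.323 ± 0.160, n = 3). DESeq2 gave a log2 fold change of 4.20 with an adjusted p of 8.24e-08. The direction was the same in both prefixes, with a log2 fold change of 3.77 in the RF-titled libraries (2 against 2, edgeR adjusted p = 0.273) and a log2 ratio of 3.36 in the RE-titled pair (1 against 1, 0.5 CPM added, no test). In bulk tissue, a change in the number of cells that make a transcript and a change in transcript per cell cannot be told apart.

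The Bmp8b gene spans 123105165 to 123132099 on the plus strand of chromosome 4 (GRCm38, GENCODE M21). The 250 bases before its RefSeq start (GRCm38.p6, chr4:123104911-123105160, plus strand) are shown because no tested gene had a larger upward fold change, and those before the Fgf21 start (chr7:45615491-45615740, minus strand) because they hold the only match among the factors to the ATF4 and C/EBP element discussed with Fgf21. Both run 5′ to 3′, with capitals at the matched motifs.
Bmp8b: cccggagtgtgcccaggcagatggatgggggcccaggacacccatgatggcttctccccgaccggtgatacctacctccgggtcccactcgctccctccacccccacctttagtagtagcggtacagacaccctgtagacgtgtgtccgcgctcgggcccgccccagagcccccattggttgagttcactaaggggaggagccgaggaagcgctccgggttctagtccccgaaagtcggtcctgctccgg
Fgf21: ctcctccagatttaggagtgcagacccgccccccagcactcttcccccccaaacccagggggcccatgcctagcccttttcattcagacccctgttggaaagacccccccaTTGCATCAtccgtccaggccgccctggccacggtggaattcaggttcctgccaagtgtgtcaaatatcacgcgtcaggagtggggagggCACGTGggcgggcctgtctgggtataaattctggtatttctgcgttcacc
Of 3 motifs searched on both strands, the ATF4 and C/EBP composite core TGATGNAA, the cyclic AMP response element TGACGTCA and the E-box CACGTG, none lay in this Bmp8b stretch, which is 65.2% G and C. These letters occur in 3.45%, 1.55% and 6.02% of the 32851 RefSeq start windows of the same length.

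Reads of neighbouring or similar genes could enter the Bmp8b count, so their levels are given beside it. The paralog Bmp8a, on the minus strand of chromosome 4 (123312645 to 123343252), had 0, 0 and 3 reads across heterozygous 1 to 3 and 2, 0 and 3 across knockout 1 to 3. Its coding sequence is 85.2% identical to that of Bmp8b, and 7.26% of the 50-base words of the Bmp8b transcript also occur in Bmp8a. Ppie, a cyclophilin gene on the opposite strand, shares 133 of the 3880 exon bases of Bmp8b. Ppie stood at 10.6, 11.2 and 9.41 CPM and at 14.6, 15.3 and 13.3 CPM, a log2 fold change of 0.47 (SE 0.15, edgeR adjusted p = 0.242), so the groups did not overlap there either, at a far smaller fold. Oxct2b, which sits inside the span of Bmp8b on the same strand without sharing exon bases, had 0 reads in all 3 heterozygous-labelled libraries and 2, 0 and 8 reads across knockout 1 to 3. An experimentally unverified transcript model, Gm17244, shares a further 339 exon bases on the opposite strand. Whether reads were counted by strand is unknown here.

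The other 3 members of the TGF-beta superfamily showed no common direction, and none passed in edgeR. Bmp7, which promotes brown adipocyte commitment, had few reads: 14, 11 and 25 across heterozygous 1 to 3, against 7, 15 and 18 across knockout 1 to 3. Its level was 0.818 ± 0.306 and 0.577 ± 0.259 CPM (SD, n = 3 each), with overlapping groups. The log2 fold change was -0.51, with a 95% interval from -1.60 to 0.59 (edgeR adjusted p = 0.809), or 0.329-fold to 1.50-fold.

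Gdf15, a stress-induced cytokine that reduces food intake through the hindbrain receptor GFRAL, was close to the limit of detection. It had 1, 1 and 0 reads across heterozygous 1 to 3, against 3, 8 and 5 reads across knockout 1 to 3. The 2 groups did not overlap, but all 3 heterozygous-labelled libraries lay under the 3 counts below which absence cannot be told from low expression. Over each group this is 2 reads against 16, a ratio of 6.92 at equal depth with an exact 95% interval of 1.63 to 62.1 that covers counting error only. When no filter on low counts was applied, the edgeR log2 fold change of Gdf15 was 2.58 with an adjusted p of 0.299. Gfral had no read in any library.

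Mstn was the only factor with knockout-labelled libraries below all heterozygous-labelled ones. It encodes myostatin, an inhibitor of muscle growth whose main source is skeletal muscle. Its level was 2.19, 4.54 and 6.74 CPM across heterozygous 1 to 3, against 1.52, 0.585 and 1.52 CPM across knockout 1 to 3. The log2 fold change was -1.90 (SE 0.52, 95% interval -3.12 to -0.68), which did not pass in edgeR (adjusted p = 0.153) and passed in DESeq2 (adjusted p = 0.00758). By prefix, the values were -1.69 (RF, adjusted p = 0.291) and -1.84 (RE, no test).

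Skeletal muscle transcripts separated the groups in the same direction as Mstn. The 15 muscle markers summed to 9200, 21392 and 27616 CPM across heterozygous 1 to 3, against 5748, 3329 and 3218 CPM across knockout 1 to 3, and none of the 15 was at 0. Their median log2 fold change was -2.22, against 0.02 over all genes tested, and all 15 had an unadjusted p under 0.05 and groups that did not overlap, while none passed in edgeR. Per 100000 CPM of these markers, Mstn stood at 23.8, 21.2 and 24.4 CPM for heterozygous 1 to 3, compared with 26.5, 17.6 and 47.3 CPM for knockout 1 to 3. On that scale the groups overlapped, with 23.1 ± 1.7 and 30.5 ± 15.3 (SD, n = 3 each). The part of muscle tissue in the Mstn difference was not tested beyond these values.

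**Figure D2:**
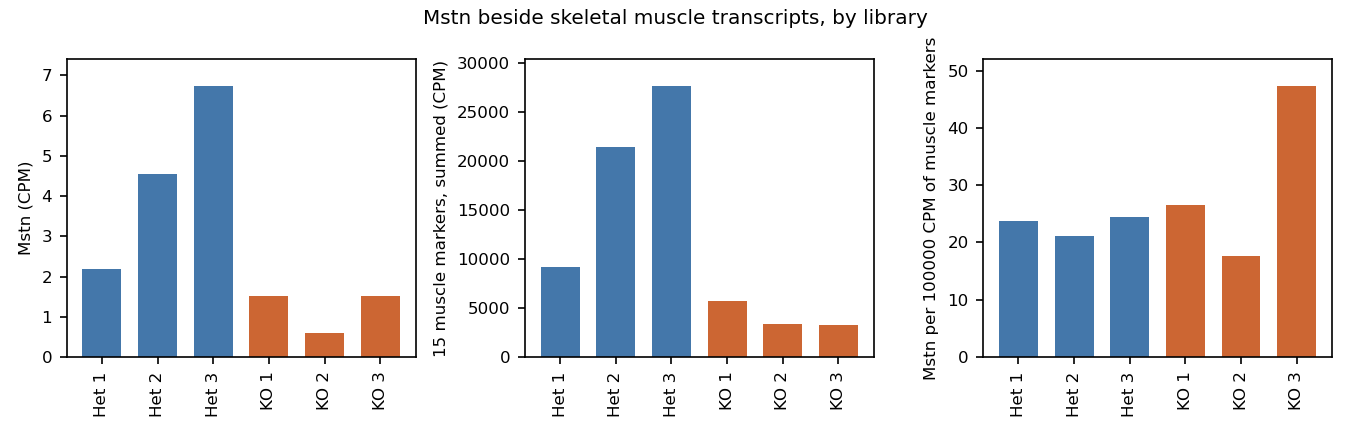
Mstn level (left, CPM), the summed level of 15 skeletal muscle markers (middle, CPM) and Mstn per 100000 CPM of those markers (right) in the 6 libraries, blue for heterozygous-labelled and orange for knockout-labelled. The left and middle panels separate the groups, while on the right knockout 2 is lowest at 17.6 and knockout 3 highest at 47.3.

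Fgf21 stood higher in the knockout-labelled library or libraries of each title prefix and did not pass the test. It encodes the hormone FGF21, which acts through FGFR1 and the co-receptor beta-Klotho. The level was 0.267, 0.302 and 1.15 CPM across heterozygous 1 to 3, against 0.627, 0.819 and 4.34 CPM across knockout 1 to 3. These levels rest on few reads, 5, 6 and 25 against 14, 21 and 94. Both RE-titled libraries, heterozygous 3 and knockout 3, were the highest of their groups, so that the groups overlapped. The log2 fold change was 1.71 (SE 0.91, 95% interval -0.42 to 3.84; edgeR adjusted p = 0.572). Without knockout 3 alone it was 0.30 and without heterozygous 3 alone 2.73, fits that each keep the other RE-titled library. Within the RF-titled libraries it was 1.33 (adjusted p = 0.311), with the title prefix as a covariate 1.62 (adjusted p = 0.0521), and in the RE-titled pair the log2 ratio was 1.55.

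Fgf21 occupies chromosome 7 from 45613886 to 45615490 (minus strand), and no annotated gene overlaps it. Its start window, printed above, holds TTGCATCA at positions -139 to -132 before the start, which is the TGATGNAA core read on the other strand, and the E-box at positions -50 to -45. Of the 9 factors with a RefSeq window, 1 had the composite core, 2 had the E-box (Fgf21 and Gdf15) and none had the cyclic AMP response element. No window was matched for Bmp7.

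**Figure D3:**
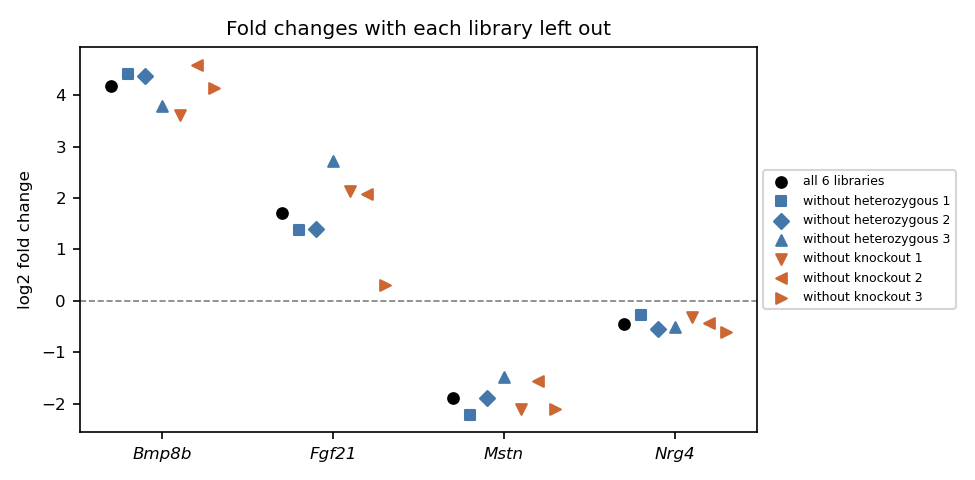
Log2 fold change (y axis, knockout-labelled minus heterozygous-labelled) of Bmp8b, Fgf21, Mstn and Nrg4 with all 6 libraries (black) and with each library left out in turn (blue for a heterozygous-labelled, orange for a knockout-labelled library). Bmp8b stays between 3.61 and 4.60 and Mstn between -2.22 and -1.48, whereas Fgf21 ranges from 0.30 to 2.73.

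Nrg4 was the most abundant of the factors. It encodes neuregulin 4, an EGF-family ligand released by brown fat that acts on ERBB receptors in liver and other tissues. Its level was 207, 145 and 152 CPM across heterozygous 1 to 3, against 98.3, 122 and 149 CPM across knockout 1 to 3. The 2 lowest libraries were knockout-labelled, but knockout 3 lay above heterozygous 2. The log2 fold change was -0.45 (SE 0.20, 95% interval -0.93 to 0.03; edgeR adjusted p = 0.463). Libraries titled RF gave -0.68 and the RE-titled pair -0.03, and without heterozygous 1 the value was -0.27. The gene lies on chromosome 9 from 55220222 to 55326844, where Fbxo22 shares 6.06% of its exon bases on the opposite strand.

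The remaining 4 factors showed no separation. Metrnl, the meteorin-like factor that acts on immune cells in fat, stood at 4.91, 4.99 and 7.34 CPM across heterozygous 1 to 3, against 5.11, 6.67 and 5.81 CPM across knockout 1 to 3. Its log2 fold change of 0.03 had a 95% interval of -0.52 to 0.58 (edgeR adjusted p = 0.984). Libraries titled RF gave 0.25, and the RE-titled pair gave -0.31. Igf1, the growth factor under control of growth hormone, stood at 54.1, 20.8 and 44.2 CPM and at 37.8, 29.8 and 30.2 CPM. All 3 knockout-labelled values lay between the extremes of the heterozygous-labelled ones, and the log2 fold change was -0.28 (95% interval -1.05 to 0.48, edgeR adjusted p = 0.872).

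Slit2, whose cleaved fragment has been described as a thermogenic signal of beige and brown fat, had 9, 4 and 17 reads across heterozygous 1 to 3, against 3, 7 and 13 reads across knockout 1 to 3. Its log2 fold change was -0.56 with a wide 95% interval of -2.12 to 1.004 (edgeR adjusted p = 0.884). Il6, the cytokine interleukin-6, had 1, 1 and 0 reads and 1, 0 and 0 reads, under 3 counts in every library, so no fold is given. Differences in Il6 were not detectable at this depth, where 3 counts correspond to 0.117 to 0.160 CPM.

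**Figure D4:**
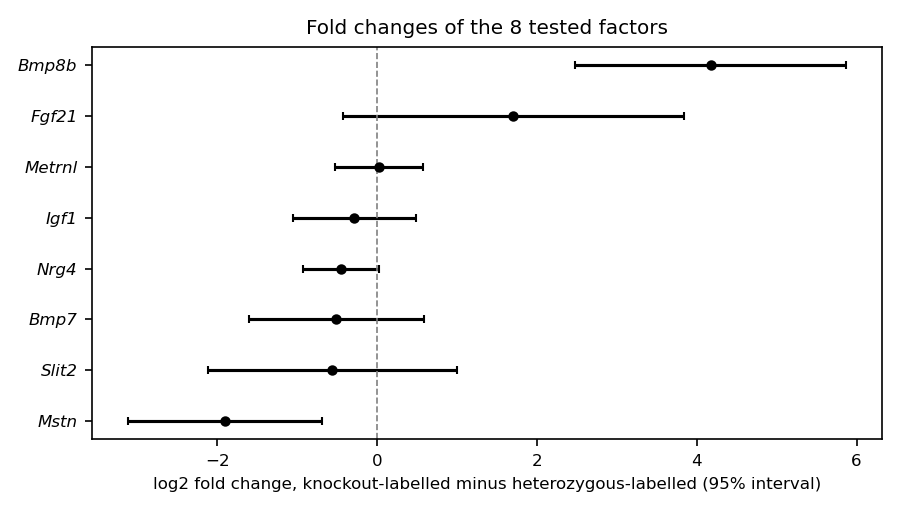
Log2 fold change (x axis, knockout-labelled minus heterozygous-labelled libraries, n = 3 each) of the 8 tested factors, with 95% intervals derived from the edgeR quasi-likelihood F statistic. Gdf15 and Il6 were not tested. The intervals of Bmp8b (2.48 to 5.87) and Mstn (-3.12 to -0.68) lie to one side of 0, before adjustment over all genes, and the other 6 cross it.

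Per length, the order of the factors by group mean differed between the groups. Levels per kb of the longest annotated transcript were highest for Nrg4, at 80.1 ± 16.2 CPM per kb in the heterozygous-labelled and 58.7 ± 12.0 in the knockout-labelled libraries (SD, n = 3 each). Igf1 (5.63 ± 2.43 and 4.62 ± 0.63 CPM per kb) and Metrnl (4.10 ± 0.98 and 4.19 ± 0.56) came next in both groups and did not differ from each other beyond their spread. In the heterozygous-labelled libraries Mstn (1.66 ± 0.84 CPM per kb), Fgf21 (0.604 ± 0.528), Bmp7 (0.223 ± 0.083) and Bmp8b (0.110 ± 0.054) followed. There the Fgf21 values overlapped those of Mstn and of Bmp7. In the knockout-labelled libraries Fgf21 (2.03 ± 2.20 CPM per kb) and Bmp8b (1.995 ± 1.33), which overlapped, stood before Mstn (0.448 ± 0.200) and Bmp7 (0.157 ± 0.070). Slit2, Gdf15 and Il6 were at or below 0.146 CPM per kb in both groups.

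Receptors for these factors were counted in the tissue, apart from Gfral, and none passed in edgeR. Of 30 receptor genes, 27 were tested, with 23 log2 fold changes below 0, 1 unadjusted p under 0.05 and a median of -0.13, against 0.02 over all genes, of which 6234 of 13300 lay below 0 and 12.1% had such a p. The receptors best known for single factors were named for that role, outside the rule for named genes. The beta-Klotho gene Klb stood at 63.7, 61.4 and 36.3 CPM across heterozygous 1 to 3, against 65.0, 58.1 and 23.8 CPM across knockout 1 to 3, with both RE-titled libraries lowest. Fgfr1 had a log2 fold change of -0.18, the BMP receptor Bmpr2 -0.17, the myostatin receptor Acvr2b -0.19, the neuregulin receptor Erbb4 -0.30, the shared IL-6 receptor chain Il6st -0.18 and Igf1r -0.24, with edgeR adjusted p between 0.721 and 0.937. The smallest p among receptors was that of Erbb3, a neuregulin receptor, at 4.14 ± 1.02 and 2.16 ± 0.39 CPM (SD, n = 3 each; log2 fold change -0.94, edgeR adjusted p = 0.188). Acvr1b, an activin and myostatin receptor, followed at -0.73 (adjusted p = 0.455). The type I BMP receptor Bmpr1b did not pass the edgeR filter and was called lower by DESeq2 alone (log2 fold change -2.59, adjusted p = 0.0338). It had 8, 46 and 35 reads across heterozygous 1 to 3, against 8, 8 and 1 across knockout 1 to 3. The difference thus rests on heterozygous 2 and heterozygous 3.

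Extracellular partners and processing proteases held no called gene either. Among 21 tested binding proteins and inhibitors the median log2 fold change was -0.10 and 3 had an unadjusted p under 0.05 (12.1% of all genes). That median was -0.50 without knockout 3 and 0.053 without heterozygous 3. The smallest p were those of Wfikkn2, an extracellular inhibitor of myostatin (-1.40, edgeR adjusted p = 0.223), and Igfals, which stabilises circulating IGF complexes (-1.21, adjusted p = 0.319). Of the 9 tested proteases, 2 had an unadjusted p under 0.05, against 12.1% of all genes. Furin, which cleaves TGF-beta family precursors, stood at 139, 122 and 117 CPM across heterozygous 1 to 3, against 181, 164 and 154 CPM across knockout 1 to 3. Its groups did not overlap, and its log2 fold change of 0.40 did not pass (SE 0.13, edgeR adjusted p = 0.241). The related convertase gene Pcsk5 was at -0.66 (adjusted p = 0.321), with all 3 knockout-labelled libraries below the others. Among 18 tested family relatives the median was -0.12 (-0.42 without knockout 3 and 0.12 without heterozygous 3) and 2 had an unadjusted p under 0.05, with Hbegf, an EGF-family ligand, at -0.85 (adjusted p = 0.326) and the IL-6 family cytokine Ctf1 at -0.48 (adjusted p = 0.347).

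**Figure D5:**
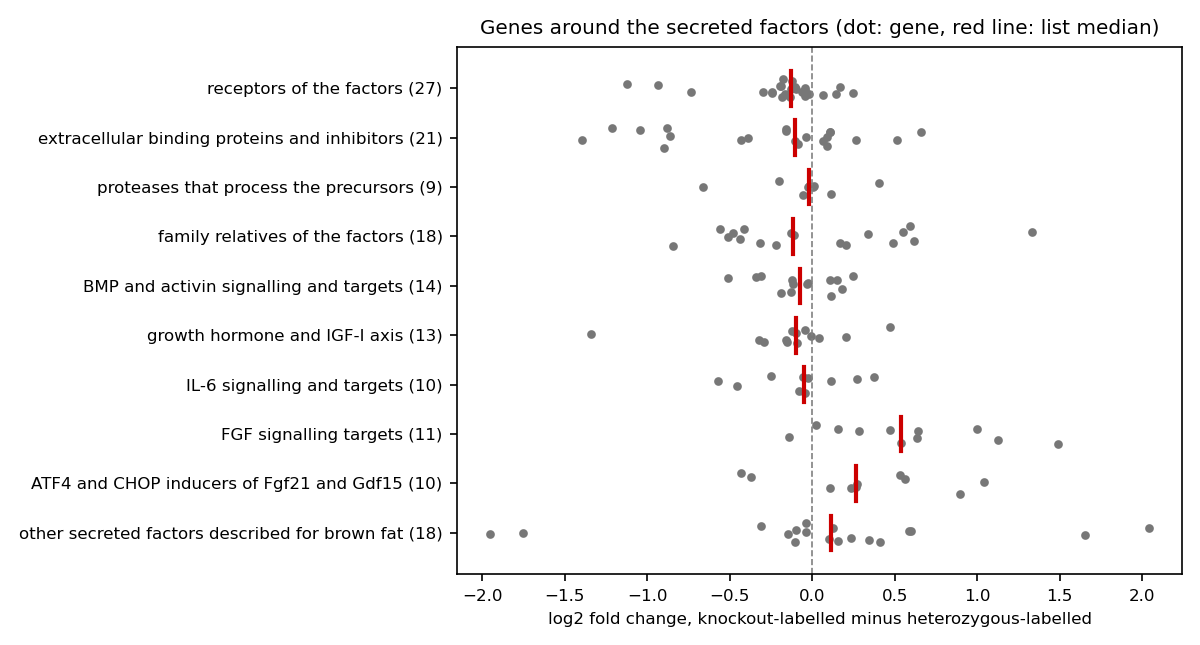
Log2 fold change (x axis, knockout-labelled minus heterozygous-labelled) of every tested gene (grey dots) in 10 lists of genes around the secreted factors (y axis, number tested in parentheses), with the list median in red. The medians lie between -0.13 and 0.53, and none of the genes passed the adjusted p of 0.05 in edgeR. The list labelled ATF4 and CHOP inducers also holds targets of ATF4 and CHOP.

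Downstream and upstream of the factors, the lists likewise held no call in edgeR. All 14 genes of BMP and activin signalling were tested, with a median log2 fold change of -0.07 and 1 unadjusted p under 0.05. The signal transducer Smad3 was at -0.51 (edgeR adjusted p = 0.363) and Smurf1, a ubiquitin ligase for SMAD proteins, at 0.18 (adjusted p = 0.681). Of 11 tested FGF signalling targets, 10 lay above 0, with a median of 0.53 and 1 unadjusted p under 0.05, where 7066 of 13300 genes lay above 0 and 12.1% had such a p. Egr1, an immediate early transcription factor, stood at 38.9, 7.66 and 24.6 CPM across heterozygous 1 to 3, against 29.3, 87.4 and 83.0 CPM across knockout 1 to 3 (log2 fold change 1.49, adjusted p = 0.392), and Spred1, an inhibitor of that pathway, was at 0.64 (adjusted p = 0.506). The FGF target median moved with the libraries used. It was -0.14 without knockout 3, 0.76 without heterozygous 3 and 0.14 with both left out. With the title prefix in the model it was 0.33, and in the RE-titled pair 1.06. Whether these genes follow the Fgf21 level was not tested.

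ATF4 and CHOP are known inducers of Fgf21 and Gdf15, and the list of their response also holds targets of ATF4 and CHOP. Its 10 tested genes had a median log2 fold change of 0.27, with 8 above 0 and 2 at an unadjusted edgeR p under 0.05. Over all genes tested, 7066 of 13300 lay above 0 and 12.1% had such a p. Atf4 stood at 118, 153 and 125 CPM across heterozygous 1 to 3, against 154, 204 and 227 CPM across knockout 1 to 3. Its groups barely separated, with a log2 fold change of 0.56 (SE 0.18, edgeR adjusted p = 0.242). Trib3, an ATF4 and CHOP target, was at 0.90 (SE 0.28, adjusted p = 0.213). Atf5 was called higher in edgeR only when the title prefix was a covariate (log2 fold change 1.13, edgeR adjusted p = 0.0282).

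In the growth hormone and IGF-I axis, 13 genes were tested with a median log2 fold change of -0.10 and 1 unadjusted p under 0.05. Irs2, an adaptor of the insulin and IGF-I receptors, stood at 15.2, 16.5 and 16.1 CPM across heterozygous 1 to 3, against 6.81, 7.80 and 4.20 CPM across knockout 1 to 3. The heterozygous-labelled replicates were tight, the knockout-labelled ones spread more, and the groups lay apart. The log2 fold change of -1.34 (SE 0.24) missed the threshold in edgeR with all libraries (adjusted p = 0.0715). It passed in edgeR with the title prefix as a covariate (adjusted p = 0.0174), when knockout 3 was dropped (adjusted p = 0.0342), using RF titles only (adjusted p = 0.0439), in DESeq2 (adjusted p = 5.10e-05) and in limma-voom (adjusted p = 0.0199). It did not pass when any of the other 5 libraries was left out (adjusted p 0.0645 to 0.226), nor under the other scalings and filters (0.0528 to 0.0704). Its partner Irs1 was at -0.32 (edgeR adjusted p = 0.602). In IL-6 signalling, 10 tested genes had a median of -0.05 and none had an unadjusted p under 0.05, with Pim1 at -0.46 and Socs1 at -0.57 (edgeR adjusted p = 0.746 and 0.763).

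Of 19 other secreted factors described for brown fat, 18 were tested, with a median log2 fold change of 0.11 and 5 at an unadjusted p under 0.05, against 12.1% of all genes. The smallest p belonged to Fndc5, the precursor of irisin and abundant in muscle, at 9.07, 23.8 and 28.1 CPM across heterozygous 1 to 3, against 6.05, 5.81 and 3.88 CPM across knockout 1 to 3 (log2 fold change -1.95, SE 0.42, edgeR adjusted p = 0.0818). Epdr1, a secreted ependymin-related protein, stood at 7.36, 18.0 and 20.5 CPM and at 5.78, 3.78 and 4.06 CPM (log2 fold change -1.75, SE 0.40, adjusted p = 0.0881). Both were lowest among the heterozygous-labelled libraries in heterozygous 1, which also had the lowest muscle marker sum of that group, and the part of muscle tissue in these differences was not tested. Both passed in DESeq2 (adjusted p = 0.000106 and 0.000404), which also called Ptgds, a prostaglandin D synthase, higher (log2 fold change 2.05, adjusted p = 0.0156), while edgeR gave Ptgds an adjusted p of 0.247.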

How the data were processed

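BAT was snap frozen and ground before extraction, from 3 mice of each genotype, per the labels' protocols. The values are read counts per gene symbol, as the authors deposited them. Tools named in the submitters' processing notes are STAR 2.7.2b, HTSeq, SAMtools 1.9, Trim Galore, Bowtie2 2.3.4.3 and edgeR, with the build mm10 and no roles; annotation and strand setting are unknown here. The 5 rows that name no gene held 51.6% to 56.1% of the heterozygous-labelled and 41.7% to 49.0% of the knockout-labelled columns and were left out. Libraries were grouped by genotype label, and replicate numbers, in accession order, pair nothing.

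Genes passing filterByExpr (minimum count 10, total 15) were scaled by TMM and fitted on genotype with edgeR 4.0.16 (R 4.3.3), by the quasi-likelihood test with robust dispersion and Benjamini-Hochberg adjustment over 13300 genes at 0.05. The code was tested on simulated data. CPM use TMM-scaled sizes. Alternatives were leave-one-out fits, RLE or no scaling factors, no filter or one at a mean CPM of 1, the prefix in the model, only RF-titled libraries, DESeq2 1.42.0, limma-voom with quality weights (limma 3.58.1), muscle markers left out of library sizes and an adjusted p of 0.1. A ratio within the RE-titled pair was added after seeing the data.

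The factors and lists were chosen with earlier results of these data known. Named genes were the 10 factors, Fam195a, Bmp8a and at most 3 each of the most abundant muscle and brown fat markers. Per pathway list they were the called genes or else the 2 with the smallest p, and for 2 factors the 3 most alike genes. Genes named outside this rule included receptors and neighbouring genes. Elovl3 was named because edgeR called it, and Bmpr1b, Atf5 and Ptgds because an alternative fit called them. Gene overlaps, positions and lengths came from GENCODE M21 (GRCm38), and start windows from RefSeq (GRCm38.p6), matched for 9 factors.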

Additional observations from a re-analysis of the deposited data

How the results depend on the processing

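In edgeR with all libraries, 7 genes were higher and 71 lower. The numbers higher and lower were 117 and 638 by DESeq2, 67 and 244 with the prefix in the model, 29 and 165 by limma-voom, and 19 and 113 in the RF-titled libraries, and 13 were higher without a filter on low counts. Leaving out single libraries gave 0 to 19 higher and 0 to 381 lower: the most without heterozygous 1, 2 and 6 without heterozygous 3, 13 and 98 without knockout 3, and none without heterozygous 2, knockout 1 or knockout 2. Among the factors, the 0 calls became 1 higher (Bmp8b) and 1 lower (Mstn) by DESeq2 and 1 higher (Bmp8b) at an adjusted p of 0.1, and stayed at 0 to 0 when single libraries were left out. Among genes of the 10 lists, 1 was higher and 4 lower by DESeq2, 1 higher and 1 lower with the prefix, and 1 lower in the RF-titled libraries and by limma-voom. Leaving out a library gave 0 to 2 lower there: Fndc5 and Epdr1 without heterozygous 1, and Irs2 without knockout 3.

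Bmp8b kept its direction in all 16 alternatives (3.36 to 4.60, adjusted p 8.24e-08 to 0.273), as did Mstn (-2.22 to -1.48), Fgf21 (0.30 to 2.73) and Nrg4 (-0.68 to -0.03). Other values changed sign, not all of them near 0. Metrnl was at -0.031 with library size only and -0.31 in the RE-titled pair. Ranges over single libraries left out crossed 0 for Metrnl (-0.072 to 0.25), Igf1 (-0.59 to 0.0073), Klb (-0.39 to 0.19), Erbb4 (-0.74 to 0.20), Fam195a (-0.29 to 0.033) and Acvr2b (-0.36 to 0.095). List medians crossed 0 in the same way for binding proteins (-0.50 to 0.053), relatives (-0.42 to 0.12), proteases (-0.22 to 0.097), IL-6 signalling (-0.15 to 0.12) and FGF targets (-0.14 to 0.77), and not for the other 5 lists. Of those, the median of the other secreted factors fell just below 0 in different settings. It was -0.019 with the prefix in the model, -0.0017 in the RF-titled libraries and -0.021 by limma-voom, and above 0 in all other alternatives. Acvr2b was at 0.10 in the RF-titled libraries, and Il6st at 0.069 and Bmpr2 at 0.078 in the RE-titled pair. Erbb4 was at -1.02 in the RF-titled libraries and at 0.84 in the RE-titled pair. The cause of these differences was not tested. Depth limits Gdf15, Il6, Slit2 and Bmp7, with at most 25 reads in any library. It also limits Bmp8b and Fgf21, with 8, 8 and 3 reads and 5, 6 and 25 reads across heterozygous 1 to 3. No paired analysis was possible because the labels give the mice no shared replicate numbers.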

Other observations

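Genes whose log2 CPM most resembled that of 2 factors over the 6 libraries were looked up among 11524 other tested genes whose average log2 CPM reached 1. For Bmp8b, the factor with the smallest p, they were Ints1, a subunit of the Integrator complex (Pearson r = 0.999), Pip5k1c, a phosphoinositide kinase (0.996), and Emilin1, an elastic fibre protein (0.991). Their own log2 fold changes were 0.23, 0.17 and 0.47, far smaller than that of Bmp8b. For Nrg4, the most abundant factor, they were D16Ertd472e (0.984), Vmn2r29 (0.981) and Ctdspl (0.966). With 6 libraries, 163 genes had an r over 0.9 with Bmp8b and 31 with Nrg4, so these are descriptions of the libraries with no test.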
